A study of Rattus norvegicus with 6 samples.

Results

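The JAK-STAT pathway carries cytokine, interferon and hormone signals from the cell surface to the nucleus. The components described here are a set of 9 rat genes chosen by name from the pathway: the kinase genes Jak1, Jak2 and Tyk2, the transcription factor genes Stat2, Stat3, Stat4 and Irf9, the feedback inhibitor gene Socs3 and the receptor gene Osmr. The choice was made with earlier results of these data known. Of the 9, 8 have rows in the transcript table and are among its 28656 gene names. Stat4 is not analysed here. All 8 passed the filter on low values (1 or more in at least 3 libraries), as did 13927 names in all.

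Pancreatic islets of male Wistar rats aged 12 weeks were dissociated and transfected with a control gapmeR (3 libraries) or with a gapmeR against rat ci-Ins2 (3 libraries), and RNA was extracted 48 h later. The circular RNA ci-Ins2 is made from an intron of the insulin gene Ins2. A gapmeR is a short antisense oligonucleotide with locked nucleic acid bases at its ends that guides RNase H to cut the RNA it pairs with. Each replicate number was taken to stand for 1 animal whose cells received both oligonucleotides, so the libraries were treated as 3 pairs. The cells were unsorted islet cells, each gapmeR was a single sequence, and libraries were made from polyadenylated RNA, so the level of ci-Ins2 itself was not measured in these values. Both oligonucleotides are shown because they are the only labelled difference between the groups.
control gapmeR: aacacgtctatacgc
rat ci-Ins2 gapmeR: gcttacagacacatag

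Values are relative transcript abundances with a common library total, summed per gene and scaled by a size factor between libraries. They were taken to be corrected for transcript length, which no source used here states. The factors were 0.962 to 1.035, and each library listed 26127 to 26730 transcripts above 0. Insulin transcripts (Ins1 and Ins2), which mark β-cells, took 15.3% to 15.9% of the total in every library. The number of reads behind a value is unknown. In the limma test across all 13927 genes, called at an adjusted p under 0.05, 488 genes (3.50%) were lower and 141 (1.01%) higher after ci-Ins2 knockdown. With the animal as a block these were 1428 genes (10.3%) and 729 genes (5.23%). In bulk samples, fewer cells of a type and less RNA per cell cannot be told apart.

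JAK kinases are bound to the tails of cytokine receptors. When a ligand brings receptor chains together, the kinases phosphorylate one another and the receptor, STAT proteins dock, are phosphorylated in turn, pair up and activate genes in the nucleus. Type I interferons signal through JAK1 and TYK2 to ISGF3, a complex that holds STAT2 and IRF9. Cytokines that share the receptor chain gp130, such as oncostatin M and IL-6, signal mainly through JAK1 to STAT3. In islet β-cells, prolactin and growth hormone signal through JAK2 to STAT5.

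After ci-Ins2 knockdown, Jak1 and Osmr fell, to 33.0% and 52.8% of the control mean, and no member rose. Stat2, Irf9 and Socs3 were at 58.8% to 65.6% of control, and Stat3 at 87.0%, without passing the test unless the animal was entered as a block. Jak2 and Tyk2 passed in neither fit. In counts, 2 of the 8 members tested were lower and 0 higher, against 3.50% and 1.01% of all genes. At an unadjusted p under 0.05, 6 members were lower and 0 higher, against 11.6% and 8.84% of all genes. With the block 6 were lower and 0 higher at an adjusted p under 0.05, against 10.3% and 5.23%. The groups did not overlap, with ci-Ins2 below control, for 6 of the 8, against 13.9% of all genes, and ci-Ins2 was wholly above control for 0 of the 8, against 13.0%. Within pairs, 7 of the 8 were lower in every pair, against 27.8% of all genes. The median log2 fold change of the 8 was −0.62, beside 0.0022 for all genes tested. Because the members were chosen with earlier results of these data known, these counts and this median are a description.

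**Figure D1:**
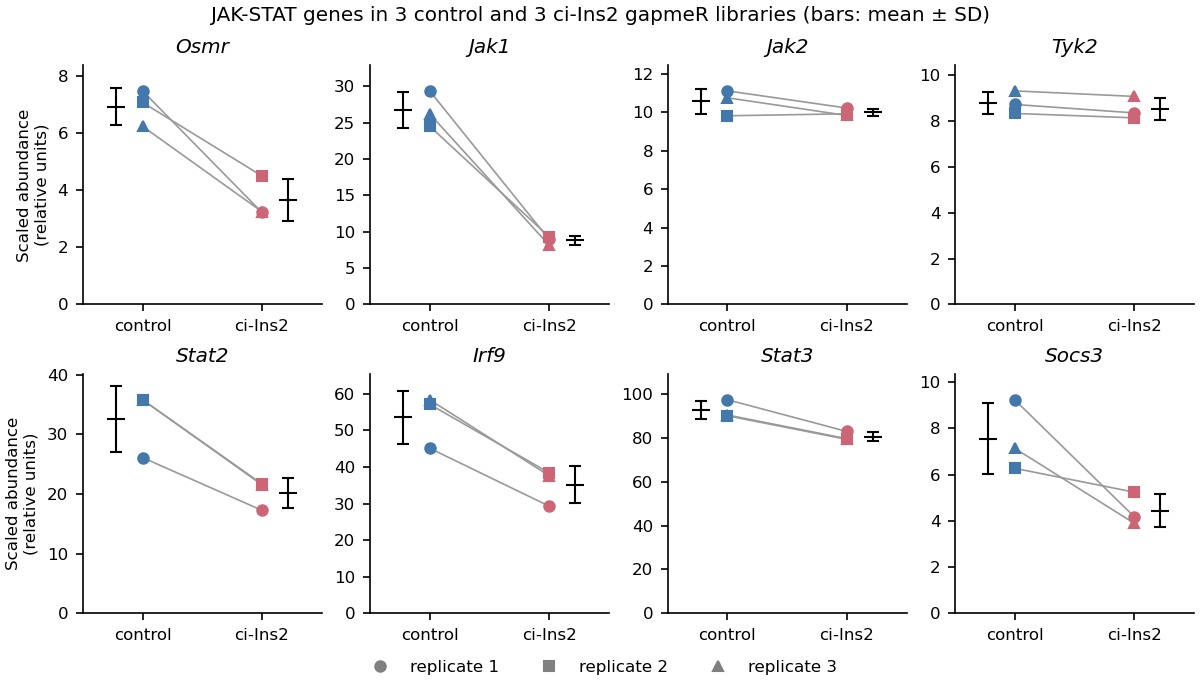
Scaled abundance (y axis, from 0) of the 8 analysed JAK-STAT genes in 3 control and 3 ci-Ins2 gapmeR libraries. Each line joins the 2 libraries of 1 replicate number, and the bars give the mean ± SD. The groups do not overlap for Osmr, Jak1, Stat2, Irf9, Stat3 and Socs3, and they overlap for Jak2 and Tyk2.

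Among the members, control levels ran from a mean of 92.6 for Stat3 to 6.93 for Osmr, on the abundance scale. In the order Stat3, Irf9, Stat2, Jak1, Jak2, Tyk2, Socs3 and Osmr, the control ranges of Stat2 and Jak1 overlapped, as did those of Tyk2 and Socs3 and of Socs3 and Osmr, while the other neighbours were apart. Stat3 ranked 1668 and Osmr 9191 among the 13927 genes by control mean. After ci-Ins2 knockdown, Jak1 lay below Jak2, with means of 8.81 and 10.0, and its range overlapped that of Tyk2. The rest of the order was the same.

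Osmr encodes the receptor chain that binds oncostatin M together with gp130. Its level was 7.48, 7.07 and 6.24 in control replicates 1, 2 and 3, and 3.22, 4.5 and 3.25 in ci-Ins2 replicates 1, 2 and 3. Every ci-Ins2 library was below every control library, and replicate 2 was the highest of the ci-Ins2 group. The log2 fold change, which for all genes is ci-Ins2 minus control of log2(value + 1), was −0.78 ± 0.13 (SE, n = 3 per group; adjusted p = 0.0206, limma). With the block the adjusted p was 0.00854. The call depended on single libraries. It was lost in limma fits without control replicate 1, 2 or 3 or without ci-Ins2 replicate 1 or 3 (adjusted p = 0.0587 to 0.0781), and held without ci-Ins2 replicate 2 (adjusted p = 0.0135).

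Osmr belongs to a family of receptor chains that work with gp130. Of 7 listed receptor genes of this family 6 were tested, of which limma called 1 lower (Osmr) and 0 higher, against 3.50% and 1.01% of all genes. At an unadjusted p under 0.05, 2 were lower (11.6% of all genes), and 2 with the block (Osmr and Lifr, against 10.3%). Il6st, which encodes gp130 itself, was at 57.8, 49.8 and 56.1 in control and 56.5, 53.8 and 54.1 in ci-Ins2 libraries (log2 fold change 0.01, adjusted p = 0.957, limma). Those ranges overlapped. The ratio of Osmr to Il6st within a library, as a difference of log2(value + 1), was −2.81 ± 0.16 in control and −3.59 ± 0.24 in ci-Ins2 libraries (SD, n = 3 each) and did not overlap between groups, with a two-sided exact permutation p of 0.10, the smallest that 3 against 3 libraries can give. It was 1 of 4 such ratios computed, and the adjusted p was 0.133. Lifr, the receptor chain for leukemia inhibitory factor, stood at 12.8, 10.0 and 12.1 in control and 9.61, 7.97 and 8.75 in ci-Ins2 libraries (log2 fold change −0.37, adjusted p = 0.116, limma; 0.0131 with the block). Like those of Osmr, its groups did not overlap, with ci-Ins2 below control, which made 2 of the 6 (13.9% of all genes). Il11ra1, another gene of this list, lay wholly above control after knockdown, 1 of the 6 (13.0% of all genes). It was at 1.47, 1.55 and 1.46 in control and 2.09, 1.95 and 1.65 in ci-Ins2 libraries.

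Jak1 encodes a kinase used by interferon receptors and by the gp130 family. Its level was 29.4, 24.5 and 26.2 in control replicates 1, 2 and 3 and 8.96, 9.32 and 8.15 in ci-Ins2 replicates 1, 2 and 3. The groups were far apart, with the lowest control library at 24.5 and the highest ci-Ins2 library at 9.32. Its log2 fold change was −1.497 ± 0.08 (SE, n = 3 per group; adjusted p = 0.000372, limma), and −1.61, −1.31 and −1.57 within the 3 pairs. The call was kept in each of the 6 fits that left out 1 library (−1.56 to −1.43) and under every alternative run.

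Jak2, which serves the prolactin and growth hormone receptors, had levels of 11.1, 9.82 and 10.8 in control and 10.2, 9.92 and 9.84 in ci-Ins2 libraries. The ci-Ins2 values lay inside the control range, and the log2 fold change was −0.07 ± 0.07 (SE, n = 3 per group; adjusted p = 0.593, limma). Tyk2, the partner of JAK1 at the type I interferon receptor, was at 8.73, 8.34 and 9.32 in control and 8.36, 8.15 and 9.08 in ci-Ins2 libraries. The ranges again overlapped, and the log2 fold change was −0.04 ± 0.07 (SE; adjusted p = 0.801, limma), a sign that depended on the scaling (9.81e-05 with no scaling).

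The kinases were also set against each other within libraries. For Jak1 and Jak2, the difference of their log2(value + 1) values was 1.33, 1.24 and 1.21 in control libraries and −0.17, −0.08 and −0.24 in ci-Ins2 libraries. Control was above and ci-Ins2 below 0 in every library. Jak1 against Tyk2 gave means of 1.498 ± 0.13 and 0.04 ± 0.16 (SD, n = 3 each). For both ratios the two-sided exact permutation p was 0.10, the smallest possible, and 0.133 adjusted over the 4 ratios. Jak1 made up 29.9% to 31.1% of the summed level of the 4 JAK genes in control and 14.9% to 16.5% in ci-Ins2 libraries. The remaining family gene, Jak3, which in lymphocytes serves receptors with the common gamma chain, held the largest share in every library. It was at 45.3, 39.4 and 38.6 in control and 32.7, 29.2 and 25.3 in ci-Ins2 libraries (log2 fold change −0.49 ± 0.11, adjusted p = 0.0535, limma; 0.00487 with the block).

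**Figure D2:**
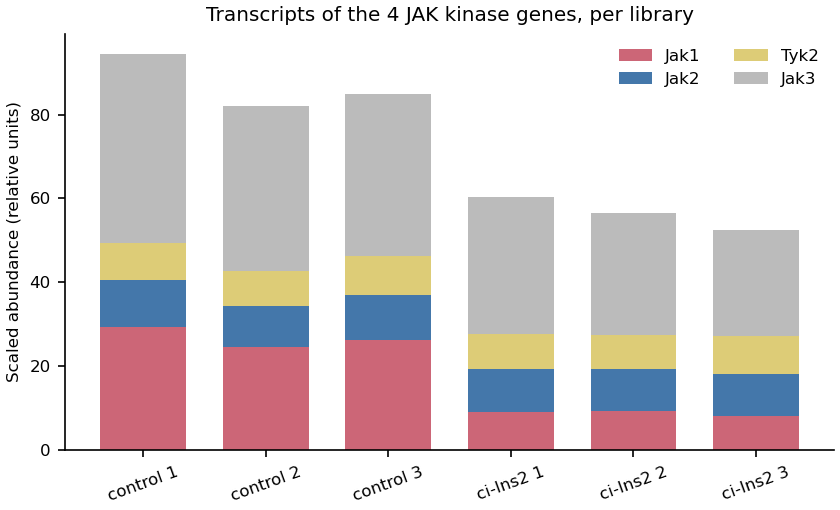
Scaled abundance (y axis, from 0) of the 4 JAK kinase genes, stacked, in each of the 6 libraries. The Jak1 segment is shorter in all 3 ci-Ins2 libraries (8.15 to 9.32) than in the 3 control libraries (24.5 to 29.4), while the Jak2 and Tyk2 segments are of similar height in both groups.

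The genes whose profile was most like that of Jak1 over the 6 libraries, by Euclidean distance between centred log2(value + 1) values among 11060 genes with a symbol, were Mbd5, Nf1, Fchsd2, Ubr1 and Tmem209, at distances of 0.161 to 0.228. They were chosen on the same 6 libraries for a profile that follows the difference between groups, so their lower values are set by that choice and are given as a description. The log2 fold changes of Mbd5, Fchsd2 and Tmem209 were −1.56, −1.46 and −1.40. Nf1, which encodes the Ras inhibitor neurofibromin, was at 10.5, 9.64 and 10.4 in control and 3.38, 3.42 and 2.92 in ci-Ins2 libraries (log2 fold change −1.40). Ubr1, a ubiquitin ligase gene of the N-degron pathway, was at 22.1, 20.8 and 22.9 in control and 6.70, 6.62 and 6.64 in ci-Ins2 libraries (log2 fold change −1.58).

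Stat2 encodes the interferon-specific STAT of ISGF3. Its level was 26.1, 35.8 and 35.8 in control replicates 1, 2 and 3 and 17.3, 21.7 and 21.6 in ci-Ins2 replicates 1, 2 and 3. The groups did not overlap, and replicate 1 was the lowest library in both. The log2 fold change was −0.66 ± 0.15 (SE, n = 3 per group; adjusted p = 0.0565, limma), and with the block −0.66 ± 0.05 (adjusted p = 0.00200). Without control replicate 1 the change was −0.80 and the adjusted p from limma 0.0293.

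Irf9, which supplies the main DNA contact of ISGF3, followed the same order of libraries. It was at 45.1, 57.1 and 58.4 in control and 29.3, 38.4 and 37.6 in ci-Ins2 libraries, with no overlap and with replicate 1 the lowest of each group. Its log2 fold change was −0.60 ± 0.14 (SE, n = 3 per group; adjusted p = 0.0647, limma), and the SE with the block was 0.04 (adjusted p = 0.00157). The changes within pairs were −0.61, −0.56 and −0.62. The Stat2 level was 0.565 to 0.627 of the Irf9 level in all 6 libraries, and as a log2 difference the ratio overlapped between groups (two-sided exact permutation p = 0.20, n = 3 per group, change −0.06).

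Stat3, the STAT of the gp130 family, was the most abundant member. Its level was 97.3, 90.0 and 90.4 in control and 82.8, 79.3 and 79.6 in ci-Ins2 libraries. The groups did not overlap, and the step was small: a log2 fold change of −0.20 ± 0.05 (SE, n = 3 per group; adjusted p = 0.0880, limma; 0.0235 with the block). Socs3, a target of STAT3 whose product inhibits JAK kinases at gp130, was at 9.24, 6.27 and 7.14 in control and 4.19, 5.24 and 3.90 in ci-Ins2 libraries. These did not overlap either, although the change within pair 2 (−0.22) was well under those of pairs 1 and 3 (−0.98 and −0.73). Its log2 fold change was −0.64 ± 0.15 (SE; adjusted p = 0.0679, limma; 0.0414 with the block).

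**Figure D3:**
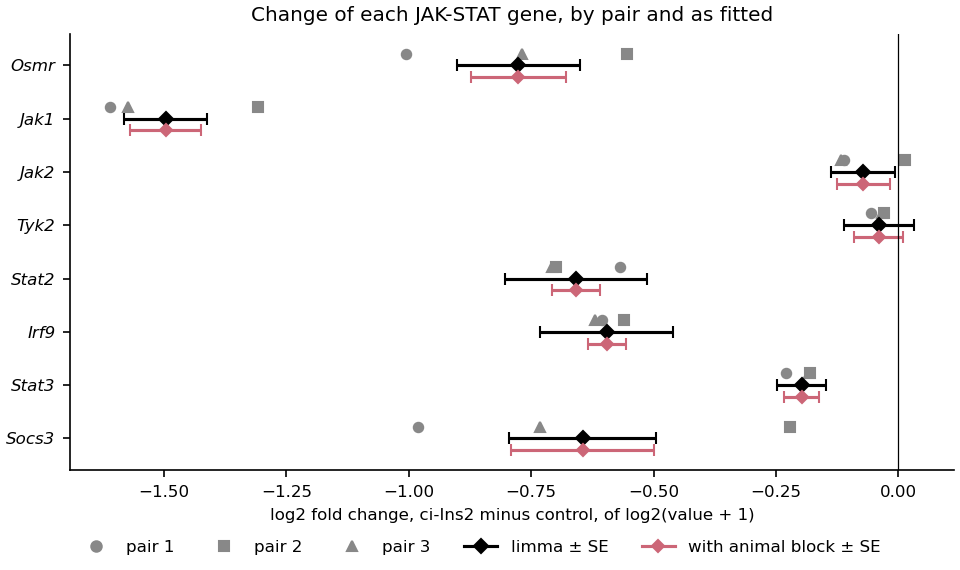
Log2 fold change, ci-Ins2 minus control, of log2(value + 1) for the 8 genes: grey symbols are the 3 pairs, black diamonds the limma estimate ± SE, red diamonds the estimate with the animal as a block ± SE. The block narrows the error of Stat2 (0.15 to 0.05) and Irf9 (0.14 to 0.04) and leaves that of Socs3 at 0.15.

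Transcript by transcript, the members had 10 entries, all tested, of which 4 were lower and 0 higher, against 4.36% and 1.03% of the 19074 transcripts tested. Jak1, Jak2, Tyk2, Stat3, Irf9 and Socs3 each had 1 transcript. The major Stat2 transcript (ENSRNOT00000088201) held 81.97% to 83.7% of the gene's level in every library and was lower at an adjusted p of 0.0456 (limma), a call lost in fits without control replicate 2 or 3 or without any 1 of the ci-Ins2 replicates (0.0890 to 0.156). For Osmr the major transcript (ENSRNOT00000080677) held 79.5% to 81.0%. Both Osmr transcripts were lower, with log2 fold changes of −0.75 and −0.46 (adjusted p = 0.0201 and 0.0397, limma). The shares of the 2 transcripts within Stat2 and within Osmr moved by about a percentage point or less between group means.

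The remaining STAT genes place Stat2 and Stat3 within the family. Of 6 tested genes in the list of STAT factors and Irf9, 0 were called by limma, 3 were lower at an unadjusted p under 0.05 and 3 with the block: Stat2, Stat3 and Irf9. Over all genes the shares lower were 3.50%, 11.6% and 10.3%. Stat5a and Stat5b, the STATs of prolactin and growth hormone, had log2 fold changes of −0.01 and −0.08 (adjusted p = 0.947 and 0.508, limma). Stat6, the STAT of IL-4, had one of 0.13 (adjusted p = 0.316, limma). It was at 44.9, 45.4 and 40.4 in control and 47.5, 49.6 and 45.7 in ci-Ins2 libraries. In this list 3 genes lay wholly below control after knockdown, against 13.9% of all genes. Stat6 was the 1 gene wholly above, against 13.0%.

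Upstream of the members, ligands and most receptors gave no call. Of 26 cytokine ligand genes only 5 passed the filter (Il7, Cntf, Il23a, Il15 and Lif), and 21 stayed at or below 1.17 in every library, among them Osm, the ligand of Osmr, and Ifnb1 and Ifng. Of the 5 tested, 0 were called by limma, with 0 lower and 1 higher at an unadjusted p under 0.05 (11.6% and 8.84% of all genes). Lif was at 1.49, 1.14 and 1.28 in control and 1.85, 1.56 and 2.08 in ci-Ins2 libraries. It was the 1 ligand gene wholly above control, against 13.0% of all genes. Among 8 tested interferon and IL-10 family receptors 0 were called in either limma fit. At an unadjusted p under 0.05, 1 was lower, against 11.6% of all genes. Ifnar1, which binds TYK2, was at 14.3, 12.4 and 12.8 in control and 12.1, 12.6 and 11.2 in ci-Ins2 libraries, and Ifnar2, which binds JAK1, at 6.35, 5.82 and 5.46 and at 6.66, 6.07 and 5.37. Both overlapped between groups. Of 9 other receptors 0 were called by limma. Lower at an unadjusted p under 0.05 and with the block were 3, Crlf2, Prlr and Ghr (11.6% and 10.3% of all genes). At an unadjusted p under 0.05, 1 was higher, against 8.84% of all genes, and not with the block (Il23r, log2 fold change 0.29). Prlr, the prolactin receptor gene, was at 140, 131 and 155 in control and 100, 112 and 114 in ci-Ins2 libraries (adjusted p = 0.0510, limma; 0.0154 with the block).

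Of 17 tested inhibitors, Socs3 included, 1 was lower and 0 higher by limma (3.50% and 1.01% of all genes). At an unadjusted p under 0.05, 5 were lower (11.6% of all genes). The groups did not overlap, with ci-Ins2 below control, for 6 of the 17 (13.9% of all genes). Pias4 lay wholly above control after knockdown, 1 of the 17 (13.0% of all genes). In every pair 9 were lower (27.8% of all genes), and the median log2 fold change of the 17 was −0.06. Without Socs3, 4 of 16 were lower at an unadjusted p under 0.05, 5 lay wholly below control and the median was −0.04. The gene called was Ptpn2, which encodes a phosphatase acting on JAK1 and STATs, at 32.7, 30.1 and 31.0 in control and 26.6, 23.0 and 24.3 in ci-Ins2 libraries. Its groups did not overlap (log2 fold change −0.33 ± 0.07, adjusted p = 0.0466, limma), and the call was lost in each of the 6 fits without 1 library (0.0520 to 0.154) and under both other scalings. With the block 3 inhibitors were lower (10.3% of all genes), and the pair added to Ptpn2 was Socs3 and Usp18. Usp18, an ISG15 protease that blocks the type I interferon receptor, was at 37.0, 65.6 and 66.1 in control and 15.9, 26.6 and 27.4 in ci-Ins2 libraries (adjusted p = 0.0662, limma; 0.000301 with the block).

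**Figure D4:**
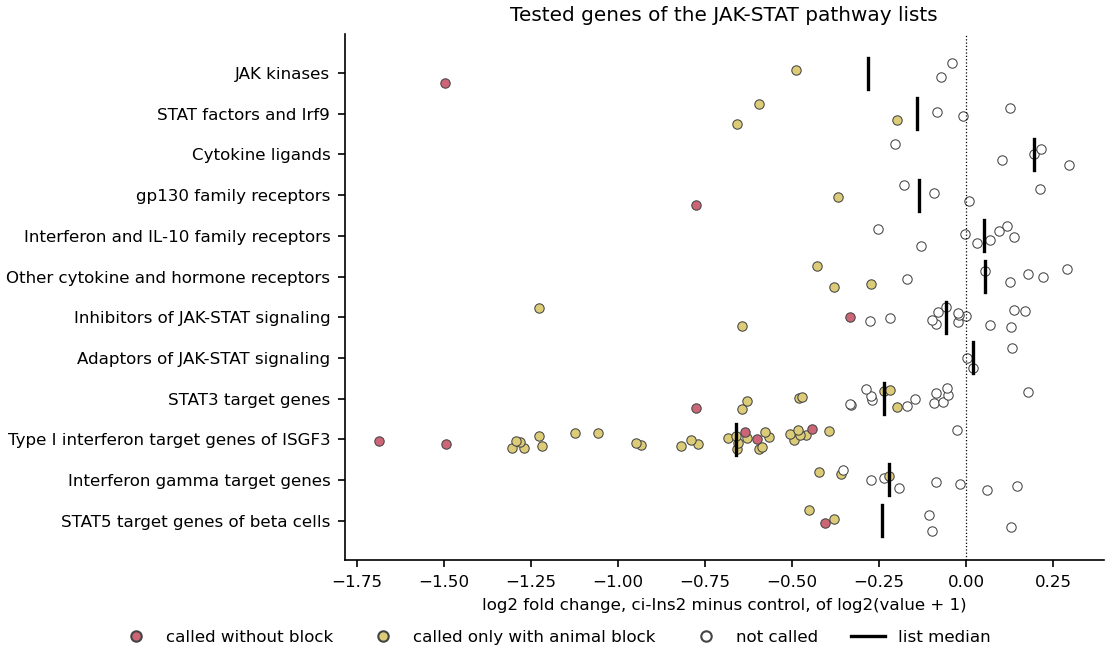
Log2 fold change, ci-Ins2 minus control, of every tested gene in the pathway and target lists (1 circle per gene; black bar, list median). Circles are red where called by limma, yellow where called with the animal block but not without it, and open where called in neither. The ISGF3 target list lies farthest to the left (median −0.66). The gp130 family receptors have a median of −0.14. Medians are 0.050 for the interferon and IL-10 family receptors and 0.054 for the other receptors. All 3 tested adaptors lie above 0 (median 0.02).

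The products of Stat2 and Irf9 act on the interferon-stimulated genes, and these had lower values after knockdown nearly throughout the list. Of 37 listed ISGF3 target genes 34 were tested, Stat2 and Irf9 among them. By limma 5 were lower and 0 higher, against 3.50% and 1.01% of all genes. At an unadjusted p under 0.05, 30 were lower (11.6% of all genes), and 33 were lower with the block (10.3%). The median log2 fold change was −0.66, and all 34 had a negative sign, of which Ifi35 turned positive with no scaling. Leaving out a library moved the number of calls from 3 (without control replicate 2 or 3, or ci-Ins2 replicate 1 or 3) to 14 (without control replicate 1).

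Summed over the 34 genes, the level was 2162, 2894 and 3005 in control replicates 1, 2 and 3 and 1044, 1363 and 1306 in ci-Ins2 replicates 1, 2 and 3. Each ci-Ins2 library held 43.5% to 48.3% of the control library of the same replicate number. Ifi27 alone made up 42.0% to 48.0% of the sum in control and 29.0% to 30.8% in ci-Ins2 libraries, and its reads may be shared with close relatives. Without it, in a sum added after the values were seen, the other 33 genes held 64.5%, 57.6% and 54.5% of the control level in pairs 1, 2 and 3. Of the 34 genes, 33 were lowest in replicate 1 within control and 32 within the ci-Ins2 group, Stat2 and Irf9 among them. Replicate 1 was taken to be the same animal in both groups, so the counts are not independent. Over all genes, 32.1% were lowest in control replicate 1, and the share for the ci-Ins2 group was not computed. Macrophage markers moved in the same direction, and all 8 tested were negative. By limma 0 were called, and 1 was lower at an unadjusted p under 0.05 (11.6% of all genes). With the block 4 macrophage markers were lower (C1qa, C1qb, C1qc and Lyz2), against 10.3% of all genes. Their summed level was 50.01 to 88.8 in control and 30.6 to 69.0 in ci-Ins2 libraries. Stromal markers were likewise all 8 negative, with 0 called by limma (0 at an unadjusted p under 0.05) and 3 with the block (Col1a1, Col1a2 and Col3a1), at summed levels of 431 to 939 and 311 to 822. The part of either cell type in these results was not tested. The T and NK cell markers Cd3e, Cd3g, Cd3d, Cd247, Cd8a, Nkg7 and Tbx21 were at 0.153 or less in every library. Cd4, the 1 marker of that list that was tested, overlapped between groups. It was at 1.75, 1.97 and 2.37 in control and 1.49, 1.41 and 2.75 in ci-Ins2 libraries.

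The 5 called targets were Ifi27, Trim25, Lgals3bp, Oas2 and Ifih1. Ifi27, an interferon-induced gene, was the most abundant, at 1039, 1216 and 1347 in control and 319, 395 and 403 in ci-Ins2 libraries (log2 fold change −1.69 ± 0.12, adjusted p = 0.00117, limma). Trim25, a ubiquitin ligase gene of the RIG-I pathway, fell from 23.5, 25.01 and 26.2 to 15.3, 15.8 and 15.8 (−0.64 ± 0.06, adjusted p = 0.00252, limma). For Oas2, which makes the oligoadenylates that activate RNase L, the values were 22.5, 36.2 and 42.2 in control and 7.44, 13.7 and 12.6 in ci-Ins2 libraries (−1.495 ± 0.28, adjusted p = 0.0357, limma). None of these groups overlapped. The RNA sensor gene Ifih1 was at 9.91, 13.1 and 13.4 in control and 6.83, 8.12 and 7.90 in ci-Ins2 libraries (−0.60 ± 0.12, adjusted p = 0.0472, limma), again without overlap. In fits without 1 library the calls of Ifi27, Trim25 and Lgals3bp held 6 times of 6, and those of Oas2 and Ifih1 held only without control replicate 1 (0.0597 to 0.122 for Oas2 and 0.0888 to 0.159 for Ifih1 in the other 5).

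**Figure D5:**
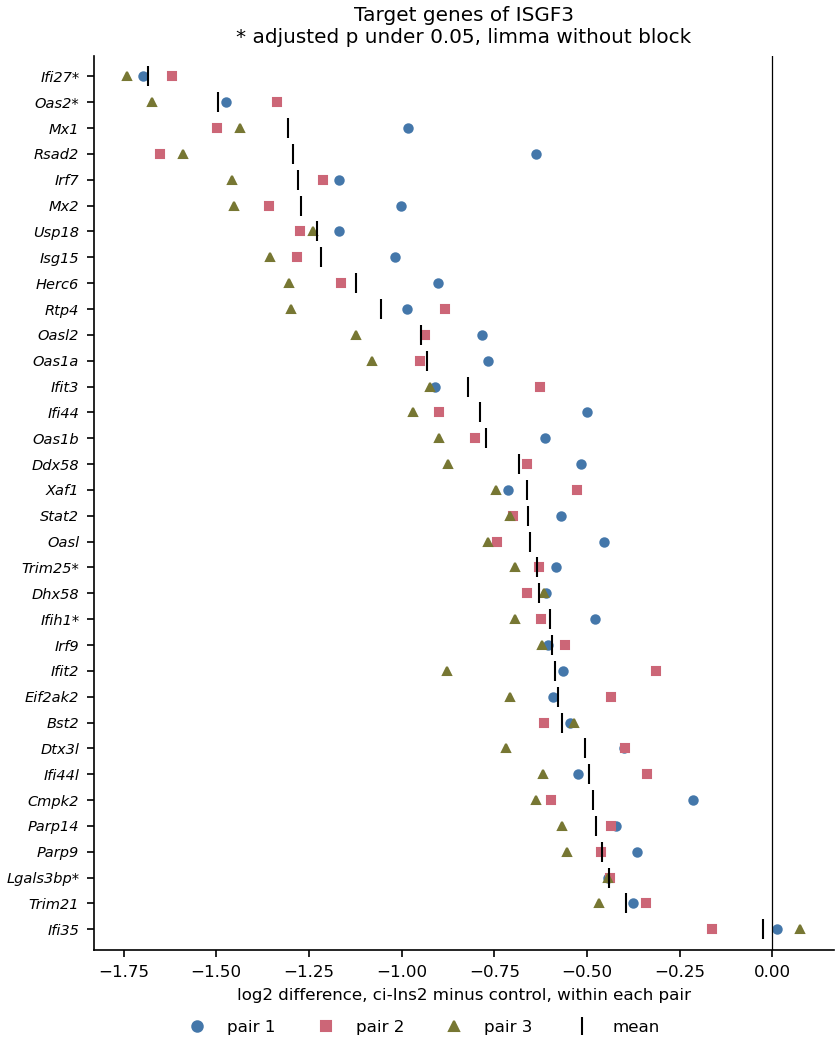
Log2 difference, ci-Ins2 minus control, within each of the 3 pairs for the 34 tested ISGF3 target genes, sorted by their mean (vertical tick); an asterisk marks a gene called by limma without the block. All 3 pairs lie below 0 for 33 genes, and Ifi35 is the exception.

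Promoter sequence gives the context of these factors. ISGF3 binds the interferon-stimulated response element (ISRE), searched here as GAAANNGAA, and STAT dimers such as STAT3 bind the gamma-activated site (GAS), searched as TTCNNNGAA, both on either strand. In RefSeq windows of 250 bases before to 50 after each gene start (assembly GRCr8), 9.71% of all 33469 windows held the ISRE letters and 8.87% the GAS letters. Of 27 windows of the ISGF3 target list, 19 (70.4%) held the ISRE letters. Of 28 windows of the STAT3 target list, 6 (21.4%) held the GAS letters. Overlapping windows of Bcl2l1 held the same matches, so these 6 windows are not 6 separate genes. A letter match is a description and does not show binding, and the 2 motifs can overlap, as GAA ends both.

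Windows were found for 6 of the 8 analysed members, Jak2, Osmr, Stat2, Stat3, Socs3 and Irf9. Each window follows the annotated gene start, which was not checked, and letters outside it were not searched. A window without a match, such as that of Socs3, therefore does not show that the promoter lacks a site. The ISRE letters were in 0 of the 6, and the GAS letters in 1, that of Irf9. This stretch and those of the called targets Ifi27, Ifih1 and Lgals3bp are shown because they are the windows of a member and of genes that fell in which the letters were found. Each is written along the gene's own strand with the match in capitals, GAS for Irf9 (chr15:33065717-33065765, plus strand) and ISRE for Ifi27 (chr6:128355123-128355171 and chr6:128355208-128355256, plus strand), Ifih1 (chr3:67683999-67684047, minus strand) and Lgals3bp (chr10:104127870-104127918, minus strand).
Irf9: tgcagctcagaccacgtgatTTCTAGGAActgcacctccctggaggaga
Ifi27, first: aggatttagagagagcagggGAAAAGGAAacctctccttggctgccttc
Ifi27, second: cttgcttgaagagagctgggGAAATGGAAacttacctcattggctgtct
Ifih1: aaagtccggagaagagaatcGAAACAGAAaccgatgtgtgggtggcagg
Lgals3bp: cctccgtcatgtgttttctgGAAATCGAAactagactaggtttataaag
The called target Trim25 had a window with 0 ISRE matches, and Oas2 had no window. Among the tested targets with a window, log2 fold changes ran from −1.31 to −0.03 for the 8 with 0 matches, from −1.29 to −0.44 for the 10 with 1 match and from −1.69 to −0.39 for the 8 with 2 matches. These ranges overlapped, and no relation between matches and changes was tested.

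STAT3 acts on genes of the acute-phase response, survival and feedback. Of 28 listed targets 21 were tested, and 1 was lower (Osmr) and 0 higher, against 3.50% and 1.01% of all genes. At an unadjusted p under 0.05, 10 were lower (11.6% of all genes), and 8 were lower with the block (10.3%). Those 8 were the members Osmr, Socs3 and Stat3 and, named after their values were seen, Cebpd, Birc5, Fgg, Hif1a and Vegfa. The list's median log2 fold change was −0.24. Osmr, Socs3 and Stat3, chosen with earlier results of these data known, are in this median, in the 10 and in the 8. No count or median of this list was computed without them. In fits without 1 library the number of lower calls was 3 without ci-Ins2 replicate 2 and 0 in the other 5, and the difference between this list and that of ISGF3 was not tested. Cebpd, a transcription factor gene of the acute-phase response, was at 16.5, 21.9 and 22.3 in control and 11.2, 16.1 and 11.1 in ci-Ins2 libraries (adjusted p = 0.101, limma; 0.0209 with the block). Hif1a, the oxygen-regulated transcription factor gene, was at 65.4, 66.8 and 60.6 in control and 54.2, 59.9 and 49.6 in ci-Ins2 libraries (adjusted p = 0.161; 0.0249 with the block).

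The targets of interferon gamma, which signals through JAK1 and JAK2, had a median log2 fold change of −0.22, beside 0.0022 for all genes and −0.66 for ISGF3 targets. Of 11 tested 0 were called by limma, and 4 were lower at an unadjusted p under 0.05 (11.6% of all genes). With the block 3 were lower (Tap1, Psmb9 and Psmb8), against 10.3% of all genes. The groups did not overlap, with ci-Ins2 below control, for 4 of the 11, against 13.9% of all genes. In sign, 9 were negative, and the 2 positive ones were Irf1 and Cxcl10. Irf1, a transcription factor gene induced early by interferon gamma, was at 6.41, 7.996 and 7.14 in control and 7.29, 7.53 and 7.71 in ci-Ins2 libraries, and Cxcl10, a chemokine gene, at 56.9, 99.8 and 85.4 and at 96.7, 91.4 and 74.5. Both overlapped between groups. The difference between this list and that of ISGF3 was not tested.

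Of 6 tested STAT5 targets of β-cells, 1 was lower (3.50% of all genes): Ccnd2, a cyclin gene of β-cell proliferation. It was at 152, 137 and 152 in control and 114, 103 and 116 in ci-Ins2 libraries, with no overlap (log2 fold change −0.41 ± 0.07, adjusted p = 0.0215, limma). The call was lost in fits without control replicate 1 or 3 or without any 1 of the ci-Ins2 replicates (0.0545 to 0.0956), and under both other scalings. Cish and Socs2, feedback targets of STAT5, had log2 fold changes of −0.10 and 0.13 and were not called (adjusted p = 0.628 and 0.573, limma). With the block 3 targets were lower, Ccnd2, Prlr and Ccnd1, against 10.3% of all genes. Ccnd1, another cyclin gene, was at 84.6, 158 and 122 in control and 63.3, 117 and 85.2 in ci-Ins2 libraries, with overlap (adjusted p = 0.420, limma; 0.00291 with the block).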

How the data were processed

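The 6 libraries were sequenced from polyadenylated RNA of transfected islet cells (TruSeq Stranded mRNA, single-end). Per the labels and the study's methods, the authors used STAR 2.5.3a for alignment against the rn6 transcriptome of the rat, and RSEM 1.3.0 for quantification. The deposited signal is a relative abundance with the same sum in every library, 10 times that of TPM. No source used here names its unit, it is no count, and depth is unknown. Tables of the authors' own fold changes, p-values and pathways, and the mouse circRNA annotation, were not used.

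Values were divided by 10 and summed per gene name. Names reaching 1 in at least 3 of the 6 libraries were kept, scaled by median-of-ratios size factors and tested as log2(value + 1) with limma 3.58.1 (R 4.3.3) with a mean-variance trend, and p-values were adjusted over all 13927 by Benjamini-Hochberg. A fold change on this scale understates the change of low genes. Transcripts were tested alike. The fit was tested on simulated data. Python 3.11.15, pandas 2.3.3, scipy 1.17.1 and matplotlib 3.10.9 made the ratios, sequences and plots.

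Libraries were paired by replicate number. The reporting summary states, for rat islet work in general, that the groups of a replicate came from the same animal. That the numbers of these libraries match single animals was inferred. Deviations from the group means correlated at 0.462, 0.493 and 0.419 between libraries of the same number and at −0.266 to −0.157 between others. The methods name no block, so the main fit has none, and the blocked value stands beside each result it changes. On this reading the same 3 animals supplied both groups. P-values of the main fit and of the permutation tests ignore the pairs and measure the spread between libraries within each group. Those with the block measure the spread of the changes within the 3 pairs.

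A gene of the STAT list and one of the α-cell list are not reported here. The members and lists were chosen with earlier results of these data known. Besides the members, the genes named were those called in each pathway or target list (up to 6) and marker list (up to 3), and the 5 genes most like Jak1. Others were named after their values were seen, where a small count or a role called for it. Alternatives were the block, a pseudocount of 0.1 or 5, a filter at 5 or none, scaling left out or done by the total less its 20 top genes, no trend, the most abundant transcript per gene, and each library left out. A group of 2 then shares the spread limma pools over both groups.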

Additional observations from a re-analysis of the deposited data

How the results depend on the processing

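Over 15 alternatives for each of the 8 members, 106 of 120 values kept direction and side of the threshold, Jak1 and Jak2 in all. Tyk2 and its transcript reversed with no scaling (9.81e-05). With the replicate block, which pairs the libraries by animal, the same changes passed for Stat2 (−0.66), Stat3 (−0.20), Irf9 (−0.60) and Socs3 (−0.64), and for the transcripts of Stat3, Irf9 and Socs3 and the minor Stat2 transcript (−0.52). Stat2 also passed with a filter at 5 (−0.66), a total without the 20 most abundant genes (−0.64) and the most abundant transcript (−0.66), and the Irf9 transcript with a filter at 5 (−0.60). The major Stat2 transcript did not pass with no filter or no trend (−0.66 in both), nor the minor Osmr transcript with no scaling (−0.44; the cause was not tested). Without 1 library, Osmr ran from −0.90 to −0.71 and Stat2 from −0.80 to −0.55. The transcripts ran from −0.80 to −0.57 (major Stat2), −0.71 to −0.47 (Irf9), −0.87 to −0.68 (major Osmr) and −0.52 to −0.41 (minor Osmr, tested in 3 of the 6 fits).

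Counts moved most with the block: lower calls went to 1428 over all genes, 6 members, 2 JAK kinases, 3 of the STAT factors and Irf9, 2 gp130 family receptors, 3 other receptors, 3 inhibitors, 8 STAT3, 33 ISGF3, 3 interferon gamma and 3 STAT5 targets, and to 1 endothelial, 3 stromal and 4 macrophage markers. Higher calls went to 729 over all genes and 1 beta and 2 delta and PP markers. A filter at 5 gave 2 JAK kinases, 1 of the STAT list, 1 other receptor and 2 STAT5 targets, and the most abundant transcript 1, 1 and 2 in the last 3 of these. A total without the 20 most abundant genes gave 1 of the STAT list, and 0 inhibitors and 0 STAT5 targets, as did no scaling for the last pair. With no filter, 89 genes were higher, 3 ISGF3 targets and 0 inhibitors lower. With no trend 1 ductal marker was higher. Without 1 library the ranges were 187 to 309 lower and 35 to 73 higher over all genes, 1 to 2 members, 0 to 1 of the STAT list, gp130 family receptors, inhibitors and STAT5 targets, 0 to 3 STAT3 targets, 3 to 14 ISGF3 targets, and 0 to 1 ductal markers higher. The summed ISGF3 level was 46.3% of control over the pairs, and 58.9% without Ifi27, an alternative added after seeing the data.

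With 3 replicates, taken as 3 animals each in both groups, and no depth given, errors rest on the spread between libraries alone. The filter on low values left 21 of 26 ligand genes untested. That Jak2 and Tyk2 missed the threshold does not show that their levels were equal.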

Other observations

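Markers of other islet cells give the setting in which the pathway genes were read. Over all genes, 3.50% were lower and 1.01% higher by limma, and 10.3% and 5.23% with the block. At an unadjusted p under 0.05 these shares were 11.6% and 8.84%. Of 8 tested β-cell markers 0 were called by limma (1 lower at an unadjusted p under 0.05), and 1 was higher with the block (Ucn3, adjusted p = 0.0112). Of 5 α-cell markers 0 were called by limma (0 at an unadjusted p under 0.05) and 0 with the block. All 3 tested ductal markers rose: Krt19 was at 1.88, 2.36 and 2.28 in control and 4.99, 3.90 and 4.23 in ci-Ins2 libraries (log2 fold change 0.76 ± 0.11, adjusted p = 0.0129, limma), and Krt18 and Krt7 had changes of 0.29 and 0.36 (adjusted p = 0.0281 and 0.0452). The 3 other listed ductal markers, Sox9, Muc1 and Cftr, stayed at or below 0.473 in every library and were not tested. These keratins are also made outside ducts. The call was lost without control replicate 3 or ci-Ins2 replicate 3 for Krt19 (0.0558 and 0.0508). It was lost in 5 of 6 fits without 1 library for Krt18 and in all 6 for Krt7. The Krt18 call was also lost with no trend. That of Krt7 was also lost with no trend, no filter, either other scaling or the most abundant transcript. Of 5 tested delta and PP cell markers 1 was higher by limma (Rbp4) and 2 with the block (Rbp4 and Pyy). The delta cell hormone gene Sst overlapped between groups, at 1121, 1331 and 1022 in control and 1146, 1231 and 1032 in ci-Ins2 libraries. Rbp4, a gene of delta cells, was at 37.6, 38.6 and 39.2 in control and 57.8, 56.2 and 55.1 in ci-Ins2 libraries (0.54 ± 0.05, adjusted p = 0.00179, limma). Endothelial (7 tested), acinar (4), T and NK (1) and Schwann cell markers (1) gave 0 calls by limma and 0 at an unadjusted p under 0.05. With the block 1 endothelial marker was lower (Kdr, adjusted p = 0.0436).

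Lcn2, a gene of the acute-phase response in the STAT3 target list, differed more between animals than within pairs: 110, 5.44 and 1.43 in control and 93.5, 6.84 and 1.11 in ci-Ins2 replicates 1, 2 and 3. It was named after its values were seen. Replicate 1, high for Lcn2, was the animal with the lowest summed ISGF3 targets in both groups.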
